A study of Mus musculus with 12 samples.

Results

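The genes described here are 34 genes associated with dendritic cell maturation, chosen as a list of costimulation, NF-kappaB, cytoskeleton and regulatory genes. They were measured in conventional dendritic cells sorted from the spleens of mice at steady state, on GeneChip gene arrays. Of the 34 listed genes, 31 had a probe set that names 1 gene, out of 19938 genes with such a probe set, and all 31 were bright enough to be among the 14954 genes tested. The other 3 were Il4i1, whose probe set is shared with Il4i1b, and Nfkb1 and Cacnb3, for which the probe table used here names no probe set.

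There were 12 arrays in 6 groups of 2 biological replicates: cDC1 and cDC2 from mice lacking the receptor Flt3 (Flt3 KO), from mice lacking its ligand (Flt3L KO) and from wild-type mice (WT). The labels call all the sorted cells mature, a word that for splenic dendritic cells commonly separates them from their precursors. No age, sex, sorting gate or pooling of mice is stated, so a p-value here reflects only how far these samples vary. The unit is linear array intensity. Differences are on the log2 scale from a limma fit across all tested genes, each with its standard error (SE), and a gene was called where its p, adjusted over the 14954 genes by the Benjamini-Hochberg method, was under 0.05. The probes of different genes hybridise differently, so intensities are compared between groups for 1 gene and never between genes.

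Dendritic cells take up antigen in a resting state and mature on sensing microbes, tissue damage or homeostatic cues. Mature cells display costimulatory ligands such as CD80 and CD86 to T cells, switch on NF-kappaB target genes, rearrange their cytoskeleton and move to T cell zones, and they also express inhibitory ligands that limit the T cell response. cDC1 are the subset best known for cross-presenting antigen to CD8 T cells, and cDC2 for presenting it to CD4 T cells. Flt3 ligand acts through Flt3 to drive the development of both.

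The receptor gene and the subset markers were used to check the labels. Flt3 had intensities of 351 to 371 on the 4 Flt3 KO arrays, against 1742 to 2333 on the 4 WT arrays. The Flt3l probe set had 119 and 129 in Flt3L KO cDC1, against 114 and 113 in WT cDC1, and 109 and 118 in Flt3L KO cDC2, against 145 and 149 in WT cDC2. It differed by 0.13 ± 0.08 (SE) in cDC1, which was not called, and by -0.37 ± 0.08 (SE; adjusted p = 0.0267) in cDC2. The labels do not say which part of Flt3l was deleted, so these values do not check the Flt3L KO label. All 8 cDC1 markers were higher in WT cDC1 than in WT cDC2, and all 8 cDC2 markers were lower. Array medians were between 59.0 and 63.0. WT cDC1 replicate 1 stood apart, with a lower quartile of 25.7 against 23.3 to 24.3 on the other 11 arrays, so results that rest on WT cDC1 are given with and without single arrays where that matters.

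The plainest pattern among the maturation genes was a difference between the subsets. In WT mice 22 of the 31 genes were called, 5 higher in cDC1 than in cDC2 and 17 lower, where 39.4% of all tested genes were called, 21% higher and 18.4% lower. The genes with the strongest cDC1 excess were Apol7c, Bcl2l14 and Tnfrsf4, and those with the strongest cDC2 excess were Pdcd1lg2, Cd69, Nfkbie and Cd274. The median log2 difference was -0.43 over the 31 genes, against 0.07 over all tested genes. Over all genotypes, 6 of the 31 genes had all 6 cDC1 arrays above all 6 cDC2 arrays, and 16 had all 6 below, where 17.6% of all tested genes were wholly above, 15.1% wholly below and 32.8% either. Each comparison is of RNA from whole sorted populations, so more cells expressing a gene and more RNA per cell cannot be told apart.

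**Figure D1:**
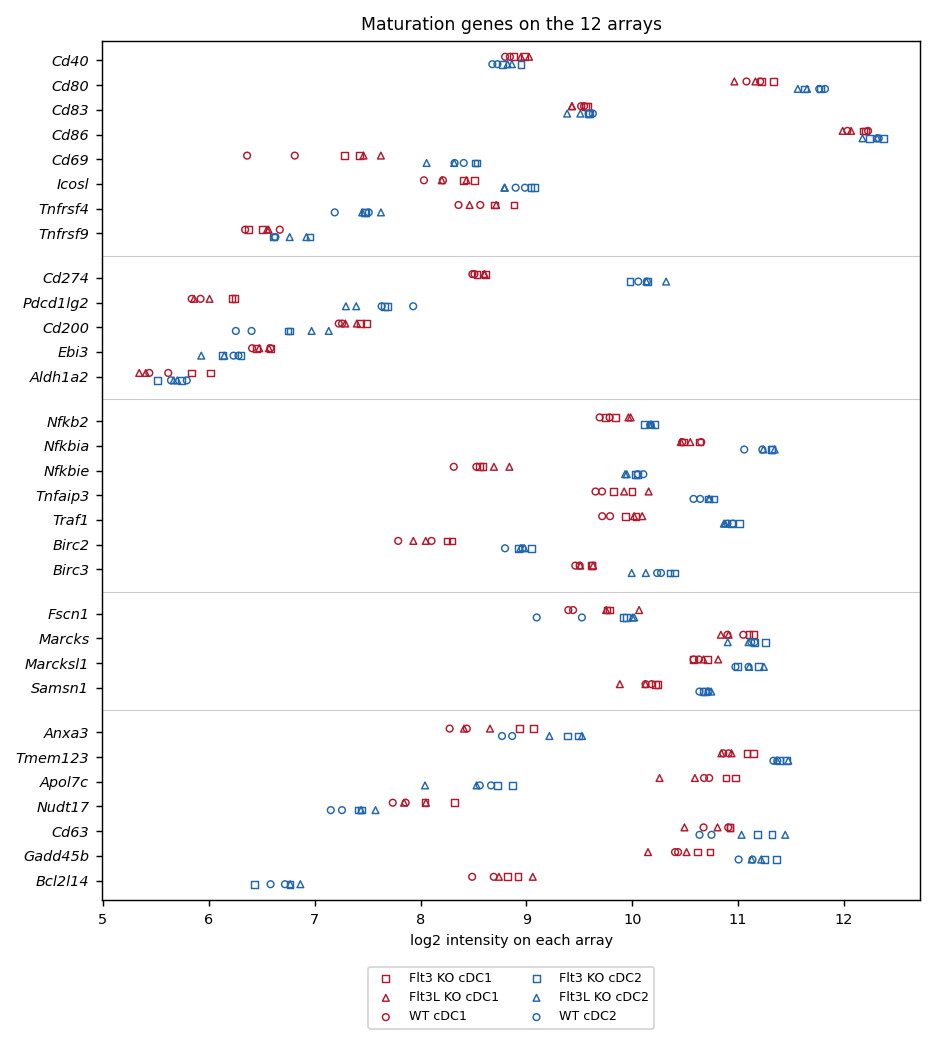
Intensity of each maturation gene on every array (x axis, log scale), with genes grouped by role down the page. Each array is a point, with colour for the subset and marker shape for the genotype. Genes such as Apol7c and Bcl2l14 have their cDC1 points to the right of their cDC2 points, whereas Cd274, Pdcd1lg2 and Nfkbie have them to the left.

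Among costimulatory and activation genes, 1 of 8 was called higher in WT cDC1 and 3 lower. Over all tested genes, 21% were called higher and 18.4% lower. Tnfrsf4, which encodes the T cell costimulatory receptor OX40, had 415 and 472 (Flt3 KO), 353 and 420.2 (Flt3L KO) and 378 and 328 (WT) in cDC1, against 178 and 179 (Flt3 KO), 175 and 198 (Flt3L KO) and 182 and 146 (WT) in cDC2. All 6 cDC1 arrays lay above all 6 cDC2 arrays, and the difference in WT was 1.11 ± 0.12 (SE; adjusted p = 1.08e-05), or 2.16-fold. Cd80, a ligand of CD28 and CTLA-4, had 2579 and 2382 (Flt3 KO), 1998 and 2293 (Flt3L KO) and 2163 and 2365 (WT) in cDC1, against 3163 and 3511 (Flt3 KO), 3026 and 3215 (Flt3L KO) and 3482 and 3616 (WT) in cDC2. The cDC2 arrays did not overlap the cDC1 arrays, and the WT difference was -0.65 ± 0.09 (SE; adjusted p = 9.34e-05). Cd69, an early activation antigen that holds lymphocytes in tissue, had 155 and 172 (Flt3 KO), 198 and 176 (Flt3L KO) and 82.3 and 112 (WT) in cDC1, against 370.3 and 366 (Flt3 KO), 319 and 266 (Flt3L KO) and 320 and 339.7 (WT) in cDC2. It showed the largest difference of this group at -1.78 ± 0.13 (SE; adjusted p = 2.32e-07), or 3.43-fold lower in WT cDC1. Icosl, the ligand of the T cell receptor ICOS, had 339.9 and 364 (Flt3 KO), 294 and 346 (Flt3L KO) and 262 and 296 (WT) in cDC1, against 541 and 528 (Flt3 KO), 445 and 443 (Flt3L KO) and 507 and 477 (WT) in cDC2. Its values were separated by cell type in every genotype, with a WT difference of -0.82 ± 0.09 (SE; adjusted p = 1.26e-05).

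The other 4 costimulatory genes were not called between the subsets. Cd86, the second CD28 ligand, was bright on every array, with intensities of 4059 to 5293. Cd40, the receptor for CD40 ligand on helper T cells, ranged over 409.7 to 521. Cd83, a surface marker of mature dendritic cells that stabilises MHC class II and CD86, ranged over 669 to 791, and Tnfrsf9, which encodes 4-1BB, over 81.2 to 124. The WT differences were 0.12 ± 0.08 (SE) for Cd40, -0.08 ± 0.07 (SE) for Cd83, -0.19 ± 0.09 (SE) for Cd86 and -0.12 ± 0.12 (SE) for Tnfrsf9.

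The inhibitory and regulatory genes split. Both ligands of PD-1 were lower in cDC1. Cd274, which encodes PD-L1, had 391 and 370.4 (Flt3 KO), 389.5 and 388 (Flt3L KO) and 359.5 and 364 (WT) in cDC1, against 1009 and 1129 (Flt3 KO), 1123 and 1278 (Flt3L KO) and 1065 and 1127 (WT) in cDC2. The subsets did not overlap, and the WT difference of -1.60 ± 0.09 (SE; adjusted p = 1e-08) was 3.03-fold. Pdcd1lg2, which encodes PD-L2, had 75.97 and 74.5 (Flt3 KO), 58.1 and 64.3 (Flt3L KO) and 60.7 and 57.2 (WT) in cDC1, against 206 and 202 (Flt3 KO), 157 and 168 (Flt3L KO) and 198 and 244 (WT) in cDC2. It was also separated on all 12 arrays, and the WT difference of -1.90 ± 0.10 (SE; adjusted p = 6.51e-09) was 3.73-fold. Cd200, the ligand of an inhibitory receptor on myeloid cells, ran the other way, with 173 and 179 (Flt3 KO), 156 and 169 (Flt3L KO) and 149.9 and 153 (WT) in cDC1, against 109 and 108 (Flt3 KO), 126 and 140.4 (Flt3L KO) and 84.7 and 76.4 (WT) in cDC2. All its cDC1 values lay above its cDC2 values, and the WT difference was 0.91 ± 0.08 (SE; adjusted p = 1.73e-06).

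Ebi3, a subunit shared by heterodimeric cytokines of the IL-12 family, was not called at 0.24 ± 0.10 (SE), although its 6 cDC1 arrays all lay above its 6 cDC2 arrays, within a range of 60.9 to 95.9. Aldh1a2, which makes retinoic acid from retinal, was dim, at 40.6 to 64.6, and was not called at -0.19 ± 0.10 (SE). The probe set shared by Il4i1, an amino acid oxidase, and Il4i1b had 266 and 289 (Flt3 KO), 199 and 241 (Flt3L KO) and 234 and 214.5 (WT) in cDC1, against 392.5 and 363 (Flt3 KO), 342 and 389 (Flt3L KO) and 328 and 308 (WT) in cDC2. It was not tested, and the share of each gene in it is unknown.

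All 7 measured NF-kappaB genes were called lower in WT cDC1 than in WT cDC2, where 18.4% of all tested genes were. NF-kappaB factors are held in the cytoplasm by inhibitors that are themselves NF-kappaB targets, so the group mixes a factor, its inhibitors and adaptors that feed the pathway. Nfkb2, the precursor of the non-canonical subunit p52, had 859.9 and 917 (Flt3 KO), 999 and 1013 (Flt3L KO) and 883 and 827 (WT) in cDC1, against 1109 and 1185 (Flt3 KO), 1163 and 1151 (Flt3L KO) and 1156 and 1151 (WT) in cDC2. Its WT difference was the smallest of the 7, at -0.43 ± 0.07 (SE; adjusted p = 0.000454). The inhibitor gene Nfkbia had 1434 and 1587 (Flt3 KO), 1407 and 1497 (Flt3L KO) and 1608 and 1420 (WT) in cDC1, against 2552 and 2558 (Flt3 KO), 2416 and 2600 (Flt3L KO) and 2399 and 2131 (WT) in cDC2. The related inhibitor gene Nfkbie had 385 and 377 (Flt3 KO), 414 and 458 (Flt3L KO) and 369 and 318 (WT) in cDC1, against 1048 and 1062 (Flt3 KO), 977 and 988 (Flt3L KO) and 1101 and 1062 (WT) in cDC2. Both were separated on all 12 arrays, with WT differences of -0.58 ± 0.09 (SE; adjusted p = 0.000234) for Nfkbia and -1.66 ± 0.09 (SE; adjusted p = 6.62e-09) for Nfkbie, and Nfkbie was 3.16-fold lower.

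Tnfaip3, a ubiquitin-editing enzyme that restrains NF-kappaB signalling, had 907 and 1022 (Flt3 KO), 971 and 1140 (Flt3L KO) and 805 and 840.1 (WT) in cDC1, against 1684 and 1748 (Flt3 KO), 1690 and 1697 (Flt3L KO) and 1529 and 1597 (WT) in cDC2. Its WT difference was -0.93 ± 0.09 (SE; adjusted p = 3.2e-06). Traf1, an adaptor of TNF receptors, had 982 and 1050 (Flt3 KO), 1036 and 1093 (Flt3L KO) and 841 and 885 (WT) in cDC1, against 1962 and 2063 (Flt3 KO), 1880 and 1866 (Flt3L KO) and 1980 and 1909 (WT) in cDC2. Its WT difference of -1.17 ± 0.08 (SE; adjusted p = 5.47e-08) was over 2-fold. The ubiquitin ligase genes Birc2 and Birc3 act with TRAF adaptors and restrain the non-canonical pathway. Birc2 had 314 and 305 (Flt3 KO), 244 and 265 (Flt3L KO) and 221 and 275 (WT) in cDC1, against 529.6 and 486 (Flt3 KO), 492 and 505 (Flt3L KO) and 445 and 499 (WT) in cDC2. Birc3 had 786 and 787 (Flt3 KO), 728 and 793 (Flt3L KO) and 705 and 726 (WT) in cDC1, against 1310 and 1347 (Flt3 KO), 1020 and 1119 (Flt3L KO) and 1205 and 1236 (WT) in cDC2. Their WT differences were -0.93 ± 0.10 (SE; adjusted p = 1.04e-05) for Birc2 and -0.77 ± 0.08 (SE; adjusted p = 4e-06) for Birc3. None of the 7 genes had a cDC1 array that reached its lowest cDC2 array.

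Most of the other NF-kappaB pathway genes on a separate list were also lower in WT cDC1. Of 22 tested, 19 estimates were below 0 and 3 above, with a median of -0.67 against 0.07 over all tested genes. In limma 0 were called higher and 15 lower, where 21% of all tested genes were called higher and 18.4% lower. The 15 included the subunits Relb, which was 2.01-fold lower (adjusted p = 4.05e-07), Rela at -0.72 ± 0.09 (SE; adjusted p = 2.64e-05) and Rel at -0.63 ± 0.08 (SE; adjusted p = 2.35e-05). They also included the deubiquitinase gene Cyld, which restrains the pathway, at -1.40 ± 0.10 (SE; adjusted p = 1.41e-07), and the atypical inhibitor gene Nfkbiz at -1.69 ± 0.08 (SE; adjusted p = 1.58e-09). At unadjusted p under 0.05, 0 of the 22 were higher.

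Promoters of 4 called genes are shown for the NF-kappaB-like words they carry. They come from RefSeq, build GRCm38.p6, run from 250 bases before to 50 after a transcript start, and are written in the direction of the gene. Capitals mark each match of the 9-base word GGNNNTTCC on either strand, which on the opposite strand reads GGAANNNCC; overlapping matches run together. The 4 were those called genes holding the word with the smallest p in the averaged knockout comparisons.
Tnfaip3 (chr10:19015361-19015660, minus strand): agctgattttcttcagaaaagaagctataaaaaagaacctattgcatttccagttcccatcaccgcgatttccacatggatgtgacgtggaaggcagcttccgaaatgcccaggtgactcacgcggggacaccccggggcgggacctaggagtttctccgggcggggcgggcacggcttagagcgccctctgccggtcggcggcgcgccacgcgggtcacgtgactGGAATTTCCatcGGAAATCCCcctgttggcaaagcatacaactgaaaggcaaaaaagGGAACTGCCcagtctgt
Birc2 (chr9:7837008-7837307, minus strand): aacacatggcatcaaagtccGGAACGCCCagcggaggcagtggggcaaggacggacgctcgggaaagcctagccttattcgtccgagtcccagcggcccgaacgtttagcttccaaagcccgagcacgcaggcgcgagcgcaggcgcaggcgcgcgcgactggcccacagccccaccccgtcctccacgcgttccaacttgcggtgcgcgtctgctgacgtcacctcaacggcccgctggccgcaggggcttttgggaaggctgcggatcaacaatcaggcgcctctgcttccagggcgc
Nfkb2 (chr19:46304487-46304786, plus strand): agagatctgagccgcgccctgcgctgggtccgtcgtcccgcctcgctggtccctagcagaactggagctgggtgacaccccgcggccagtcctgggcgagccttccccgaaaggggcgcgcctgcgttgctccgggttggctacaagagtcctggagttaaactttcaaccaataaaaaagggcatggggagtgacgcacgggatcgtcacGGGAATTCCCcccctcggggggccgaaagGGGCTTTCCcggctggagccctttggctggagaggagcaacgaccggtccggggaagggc
Cd80 (chr16:38458683-38458982, plus strand): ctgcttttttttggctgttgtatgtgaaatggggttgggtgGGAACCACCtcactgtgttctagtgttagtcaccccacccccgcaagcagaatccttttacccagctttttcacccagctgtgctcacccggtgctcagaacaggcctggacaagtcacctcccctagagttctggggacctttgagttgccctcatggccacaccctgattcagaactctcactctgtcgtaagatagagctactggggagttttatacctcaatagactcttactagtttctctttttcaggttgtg
The promoter table matched 25 of the 31 measured genes. Of these 25, 8 held the word in at least 1 promoter (32%), against 5584 of 27025 genes in the table (20.7%). Of the 8, 6 were called in some comparison, as were all of the 25 except Tnfrsf9, Ebi3 and Cd63. The matches shown for Tnfaip3 and Nfkb2 lie within 50 bases of the start, whereas the single matches begin at -230 in Birc2 and -209 in Cd80, counted from the start. Only 1 promoter of each gene is shown, and the positions depend on the transcript start. Other Nfkb2 promoters had matches beginning at -236, -224, -89 and 11. Another Tnfaip3 promoter had a match at -89, and another Birc2 promoter held no match. A match of letters is a description and does not show binding.

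Of the cytoskeleton and adaptor genes, 2 of the 4 measured were called lower in WT cDC1, where 18.4% of all tested genes were. Samsn1, a signalling adaptor, had 1191 and 1212 (Flt3 KO), 944 and 1116 (Flt3L KO) and 1162 and 1117 (WT) in cDC1, against 1627 and 1652 (Flt3 KO), 1677 and 1717 (Flt3L KO) and 1589 and 1687 (WT) in cDC2. Marcksl1, a relative of the actin-binding protein kinase C substrate Marcks, had 1672 and 1527 (Flt3 KO), 1632 and 1797 (Flt3L KO) and 1584 and 1530 (WT) in cDC1, against 2036 and 2337 (Flt3 KO), 2202 and 2424 (Flt3L KO) and 2012 and 2192 (WT) in cDC2. Their WT differences were -0.52 ± 0.09 (SE; adjusted p = 0.000296) for Samsn1 and -0.43 ± 0.10 (SE; adjusted p = 0.00272) for Marcksl1. Marcks itself ranged over 1829 to 2446 and was not called, at -0.17 ± 0.09 (SE). Fscn1, the actin-bundling protein of dendritic cell processes, was not called between the subsets either, at 0.11 ± 0.13 (SE).

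Of the 7 remaining genes, 3 were called higher and 3 lower in WT cDC1, where 21% and 18.4% of all tested genes were. Apol7c, of the apolipoprotein L family, had 2017 and 1892 (Flt3 KO), 1224 and 1543 (Flt3L KO) and 1638 and 1694 (WT) in cDC1, against 424 and 468 (Flt3 KO), 264 and 369.5 (Flt3L KO) and 406 and 377 (WT) in cDC2. The lowest cDC1 array was well above the highest cDC2 array, and the WT difference of 2.09 ± 0.14 (SE; adjusted p = 9.51e-08) was 4.25-fold. Bcl2l14, of the BCL2 family, had 484 and 452 (Flt3 KO), 428 and 534 (Flt3L KO) and 359 and 414 (WT) in cDC1, against 109 and 86.6 (Flt3 KO), 109 and 117 (Flt3L KO) and 95.9 and 105 (WT) in cDC2. Its WT difference of 1.94 ± 0.13 (SE; adjusted p = 6.75e-08) was 3.83-fold. Nudt17, a nudix hydrolase, had 264 and 319 (Flt3 KO), 229.9 and 265 (Flt3L KO) and 232 and 214 (WT) in cDC1, against 174 and 170.4 (Flt3 KO), 174 and 191 (Flt3L KO) and 153 and 142 (WT) in cDC2. It differed by 0.59 ± 0.11 (SE; adjusted p = 0.000546) in WT.

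The 3 genes lower in cDC1 were Gadd45b, Tmem123 and Anxa3. Gadd45b, a stress-inducible gene, had 1567 and 1704 (Flt3 KO), 1135 and 1461 (Flt3L KO) and 1355 and 1382 (WT) in cDC1, against 2439 and 2631 (Flt3 KO), 2237 and 2381 (Flt3L KO) and 2250 and 2054 (WT) in cDC2. Tmem123, a membrane protein, had 2169 and 2260 (Flt3 KO), 1835 and 1961 (Flt3L KO) and 1923 and 1858 (WT) in cDC1, against 2809 and 2679 (Flt3 KO), 2641 and 2843 (Flt3L KO) and 2580 and 2646 (WT) in cDC2. Their WT differences were -0.65 ± 0.11 (SE; adjusted p = 0.000349) for Gadd45b and -0.47 ± 0.08 (SE; adjusted p = 0.000282) for Tmem123. Anxa3, an annexin that binds membranes with calcium, differed by -0.46 ± 0.12 (SE; adjusted p = 0.00618), the 1 subset call that was lost on leaving out an array, with adjusted p = 0.0511 without WT cDC2 replicate 1. Cd63, a tetraspanin of late endosomes, was not called, at 0.10 ± 0.14 (SE).

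**Figure D2:**
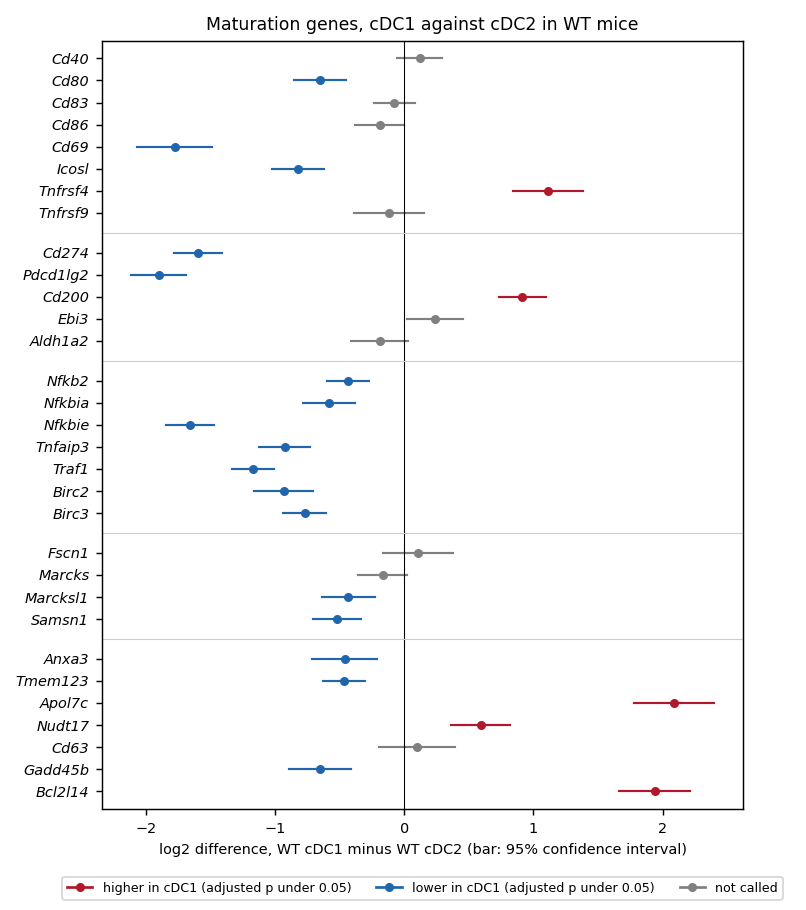
Log2 difference of cDC1 minus cDC2 in WT (x axis) for each maturation gene, with 95% confidence intervals as bars and colour for genes called higher, lower or not called. The 7 NF-kappaB genes all lie left of 0, and Apol7c and Bcl2l14 lie farthest to the right.

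Separate lists of other maturation-related genes gave mixed subset differences. Between the WT subsets 39.4% of all tested genes were called, 21% higher in cDC1 and 18.4% lower. Of 19 other genes of mature or migratory dendritic cells, 10 were higher and 7 lower in WT cDC1. Il12b, the p40 subunit of interleukin-12, was higher by 2.68 ± 0.12 (SE; adjusted p = 1.61e-09), and Ccr7, the receptor that guides mature cells to lymph nodes, differed by -0.52 ± 0.08 (SE; adjusted p = 0.000258), lower in cDC1. Of 15 other costimulatory and coinhibitory genes tested, 8 were higher and 4 lower. Of 21 immediate early genes, which rise during tissue digestion, 2 were higher and 7 lower, and their summed intensity was 37130 to 37760 in WT cDC1 and 44830 to 45220 in WT cDC2. Its part in the subset differences was not tested.

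The second question was whether loss of Flt3 changes these genes. In cDC1, limma called 0 of the 31 genes, where 0.0802% of all tested genes were called. At unadjusted p under 0.05, 15 were above WT and 0 below, where 12.5% of all tested genes passed in either direction. In all, 29 of the 31 estimates were above 0, with a median of 0.22 against -0.00194 over all tested genes. For 25 of the 31 genes both Flt3 KO arrays lay above both WT arrays, and for 0 below, where 20.3% of all tested genes lay wholly above and 20.3% wholly below. Beside this, 1 of 8 cDC2 markers was called higher in Flt3 KO cDC1, Cd209a at 0.92 ± 0.13 (SE; adjusted p = 0.0165). Of the 8 estimates, 4 were above 0 and 4 below, from -0.35 to 0.92, with a median of -0.007. The 8 cDC2 markers summed to 679 to 729 in Flt3 KO cDC1 and 555 to 578 in WT cDC1. Clec4a4 was below 23.3, the lowest lower quartile of probe sets on any array, on every array of both groups. The part of the cDC2 markers in the maturation gene values was not tested. The estimates nearest to a call were those of Cd69, 0.77 ± 0.13 (SE; adjusted p = 0.058), and Anxa3, 0.64 ± 0.12 (SE; adjusted p = 0.0599).

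The WT cDC1 arrays matter to these counts. Leaving out WT cDC1 replicate 2 gave 5 calls (Cd69, Icosl, Aldh1a2, Birc2 and Anxa3) and raised the calls over all tested genes to 1133, against 12 with every array. Leaving out WT cDC1 replicate 1, the array that stood apart, gave 0 calls, and the median over the 31 genes was then 0.20. Over all 12 omissions of an array it stayed between 0.18 and 0.23.

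In Flt3 KO cDC2, limma again called 0 of the 31 genes, where 0.107% of all tested genes were called. At unadjusted p under 0.05, 4 were above WT and 0 below, where 7.28% of all tested genes passed. For 15 of the 31 both Flt3 KO arrays lay above both WT arrays and for 1 below, where 22.5% and 16.9% of all tested genes did. The estimates were above 0 for 21 of the 31, with a median of 0.11. Leaving out Flt3L KO cDC2 replicate 1 gave a call for Anxa3, and leaving out WT cDC2 replicate 1 gave one for Fscn1. A test of the difference between the cDC2 and the cDC1 effect called 0 of the 31 genes and 0 of all 14954 (0%), with 1 of the 31 above and 3 below at unadjusted p under 0.05, where 8.97% of all tested genes passed. Leaving out WT cDC1 replicate 2 gave 1 call among the 31 and 174 over all tested genes.

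Averaged over both subsets, 2 of the 31 genes rose in Flt3 KO, where 0.254% of all tested genes were called, 0.194% higher. Anxa3 had 490.2 and 535 (Flt3 KO), 340.4 and 404 (Flt3L KO) and 309.8 and 347 (WT) in cDC1, against 669 and 721 (Flt3 KO), 595 and 737 (Flt3L KO) and 466 and 436 (WT) in cDC2. Every Flt3 KO array lay above the WT arrays of its subset, and the averaged difference was 0.63 ± 0.08 (SE; adjusted p = 0.00573). Of the alternatives and omissions run, the call was lost only without WT cDC2 replicate 2, with adjusted p = 0.0528. Fscn1 had 881 and 868 (Flt3 KO), 863 and 1071 (Flt3L KO) and 695 and 674 (WT) in cDC1, against 968 and 986 (Flt3 KO), 1025 and 1037 (Flt3L KO) and 736 and 548 (WT) in cDC2. Here too each Flt3 KO array exceeded the WT arrays of its subset, with an averaged difference of 0.49 ± 0.09 (SE; adjusted p = 0.0474).

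The Fscn1 call is close to the threshold. It was lost with quantile normalization, without a filter on dim genes, and on leaving out any 1 of the 4 Flt3 KO arrays, either Flt3L KO cDC2 array, WT cDC1 replicate 1 or WT cDC2 replicate 2, with adjusted p up to 0.201. The median averaged difference over the 31 genes was 0.133 with every array, 0.147 without WT cDC2 replicate 2 and 0.146 without WT cDC1 replicate 2. In 14 of the 31 genes the Flt3 KO arrays lay above WT in both subsets, and in 0 below, where 5.64% of all tested genes lay above in both and 3.42% below.

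**Figure D3:**
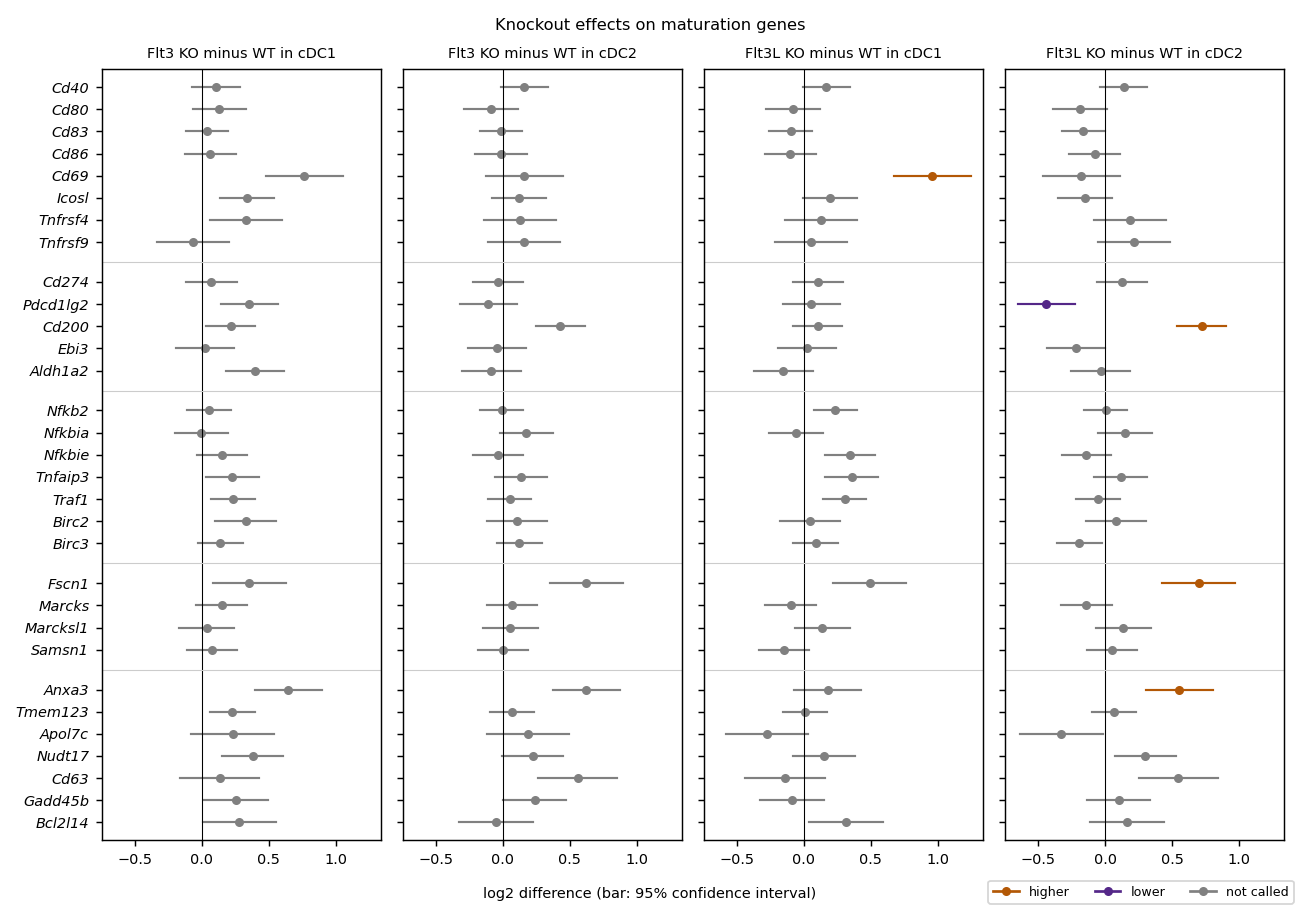
Log2 difference of each knockout minus WT (x axis, bars are 95% confidence intervals) for each maturation gene, by knockout and subset. Most Flt3 KO cDC1 estimates lie right of 0, whereas the Flt3L KO estimates lie on both sides.

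Loss of the ligand was compared with the same WT arrays, so the knockout results are not independent of each other. In Flt3L KO cDC1, 1 of the 31 genes was called, where 1.19% of all tested genes were called, 0.776% higher. Cd69 averaged 187 ± 15 in Flt3L KO cDC1 and 97.3 ± 21.3 in WT cDC1 (SD, n = 2 each), a difference of 0.96 ± 0.13 (SE; adjusted p = 0.00549), or 1.94-fold. Both Flt3L KO arrays exceeded both WT arrays. The call was lost without Flt3L KO cDC1 replicate 1, with adjusted p = 0.0849, and without WT cDC1 replicate 1 a second gene, Nfkbie, was called. At unadjusted p under 0.05, 7 of the 31 were above WT and 0 below, where 17.1% of all tested genes passed. Both Flt3L KO arrays lay above both WT arrays in 12 of the 31 genes and below in 4, where 21.8% and 21.2% of all tested genes did. The median over the 31 genes was 0.09, with 21 estimates above 0. It was 0.03 with 17 above 0 without Flt3L KO cDC1 replicate 2, and 0.13 with 24 above 0 without Flt3L KO cDC1 replicate 1.

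In Flt3L KO cDC2, 4 of the 31 genes were called, 3 higher and 1 lower, where 1.95% of all tested genes were called, 1.04% higher and 0.909% lower. Cd200 averaged 133 ± 10.5 in Flt3L KO cDC2 and 80.6 ± 5.84 in WT cDC2 (SD, n = 2 each). The difference of 0.72 ± 0.08 (SE; adjusted p = 0.00125), or 1.65-fold, was called under each alternative and without each array. Fscn1 averaged 1031 ± 8.14 in Flt3L KO cDC2 and 642 ± 133 in WT cDC2, a difference of 0.70 ± 0.13 (SE; adjusted p = 0.0142), or 1.62-fold. Anxa3 averaged 666 ± 100 in Flt3L KO cDC2 and 451 ± 21.2 in WT cDC2, a difference of 0.55 ± 0.12 (SE; adjusted p = 0.0288), or 1.47-fold. The PD-L2 gene Pdcd1lg2 was the 1 that fell, averaging 163 ± 7.77 in Flt3L KO cDC2 and 221 ± 32.2 in WT cDC2, a difference of -0.44 ± 0.10 (SE; adjusted p = 0.0414).

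These calls differed in how far they depended on single arrays. The Fscn1 call was lost without either Flt3L KO cDC2 array or WT cDC2 replicate 2, with adjusted p up to 0.144. The Anxa3 call was lost without Flt3L KO cDC2 replicate 2 or either WT cDC2 array, with adjusted p up to 0.226. The Pdcd1lg2 call was lost without a filter on dim genes and without any 1 of the 8 knockout arrays or WT cDC2 replicate 2, with adjusted p up to 0.345. Whether called or not, 11 of the 31 genes had both Flt3L KO cDC2 arrays above both WT cDC2 arrays and 11 had them below, where 27.2% and 21.4% of all tested genes did. Without Flt3L KO cDC2 replicate 2, and likewise without WT cDC2 replicate 2, Cd200 was the 1 gene still called.

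Markers of other cells moved in the same samples. Of 8 tested macrophage markers, 5 were called higher in Flt3L KO cDC2 than in WT cDC2 (C1qa, C1qb, C1qc, Vcam1 and Mertk), and the summed intensity of the 9 markers was 1842 to 2259 in Flt3L KO cDC2 and 705 to 727 in WT cDC2. The sums were 1020 to 1164 in Flt3 KO cDC2, and in cDC1 they were 609 to 634 in Flt3L KO and 582 to 598 in WT, with 0 of 8 called. None of the 9 was below 23.3, the lowest lower quartile of probe sets on any array, on both Flt3L KO cDC2 arrays. In WT cDC2, 1 was below it on both arrays. Of the 8, C1qa and Vcam1 were also called higher in Flt3 KO cDC2. The 6 B cell markers with a value summed to 859 to 966 in Flt3L KO cDC2 and 1043 to 1052 in WT cDC2. Of the 8 cDC2 markers, 2 were called lower in Flt3L KO cDC2, Clec4a4 at -0.70 ± 0.13 (SE; adjusted p = 0.0185) and Cd209a at -0.98 ± 0.13 (SE; adjusted p = 0.00251), and the list summed to 6851 to 6867 in Flt3L KO cDC2 and 8199 to 8338 in WT cDC2. Of the 8 cDC1 markers, 2 were called higher, Irf8 at 0.52 ± 0.08 (SE; adjusted p = 0.00787) and Cadm1 at 0.56 ± 0.10 (SE; adjusted p = 0.0172), and the list summed to 1587 to 1598 in Flt3L KO cDC2 and 1297 to 1394 in WT cDC2. The estimates of this list were above 0 for 5 markers and below for 3. In Flt3 KO cDC2 the same list summed to 1641 to 1701, with 0 called and estimates above 0 for 6 markers and below for 2. Xcr1 averaged 66.3 in Flt3L KO cDC2 and 66.6 in WT cDC2, and Clec9a 141 and 162. The part of these marker lists in the Cd200, Fscn1, Anxa3 and Pdcd1lg2 results was not tested.

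Averaged over both subsets, 4 of the 31 genes rose in Flt3L KO, where 3% of all tested genes were called, 1.67% higher. Fscn1 differed by 0.59 ± 0.09 (SE; adjusted p = 0.00521) and Cd200 by 0.41 ± 0.06 (SE; adjusted p = 0.00409), and both were called without each array. Cd69 differed by 0.39 ± 0.09 (SE; adjusted p = 0.0453) and Anxa3 by 0.37 ± 0.08 (SE; adjusted p = 0.0323). The Flt3L KO arrays of Cd69 lay above WT in cDC1 but below WT in cDC2, and those of Anxa3 overlapped WT in cDC1. In 6 of the 31 genes the Flt3L KO arrays lay above WT in both subsets and in 2 below, where 6.25% and 5.74% of all tested genes did. The Cd69 call was lost without a filter on dim genes and on 10 of the 12 omissions of an array, all except Flt3L KO cDC2 replicate 2 and WT cDC1 replicate 2, with adjusted p up to 0.172. The Anxa3 call was lost without Flt3L KO cDC1 replicate 2, Flt3L KO cDC2 replicate 2, WT cDC1 replicate 1 or either WT cDC2 array, with adjusted p up to 0.128. Without Flt3L KO cDC1 replicate 2, WT cDC1 replicate 1 or either WT cDC2 array, only Cd200 and Fscn1 were called.

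The effect of losing the ligand differed between the subsets for 2 of the 31 genes, where 0.495% of all tested genes were called, 0.247% in each direction. For Cd69 the cDC2 effect minus the cDC1 effect was -1.13 ± 0.19 (SE; adjusted p = 0.0214), and its cDC2 effect alone was -0.18 ± 0.13 (SE). For Cd200 it was 0.62 ± 0.12 (SE; adjusted p = 0.0448), with effects of 0.72 ± 0.08 (SE) in cDC2 and 0.10 ± 0.08 (SE) in cDC1. The Cd69 call was lost without Flt3L KO cDC1 replicate 1, Flt3L KO cDC2 replicate 2 or either WT cDC2 array, with adjusted p up to 0.0994. The Cd200 call was lost without a filter on dim genes and without any 1 array except WT cDC1 replicate 2, with adjusted p up to 0.181.

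**Figure D4:**
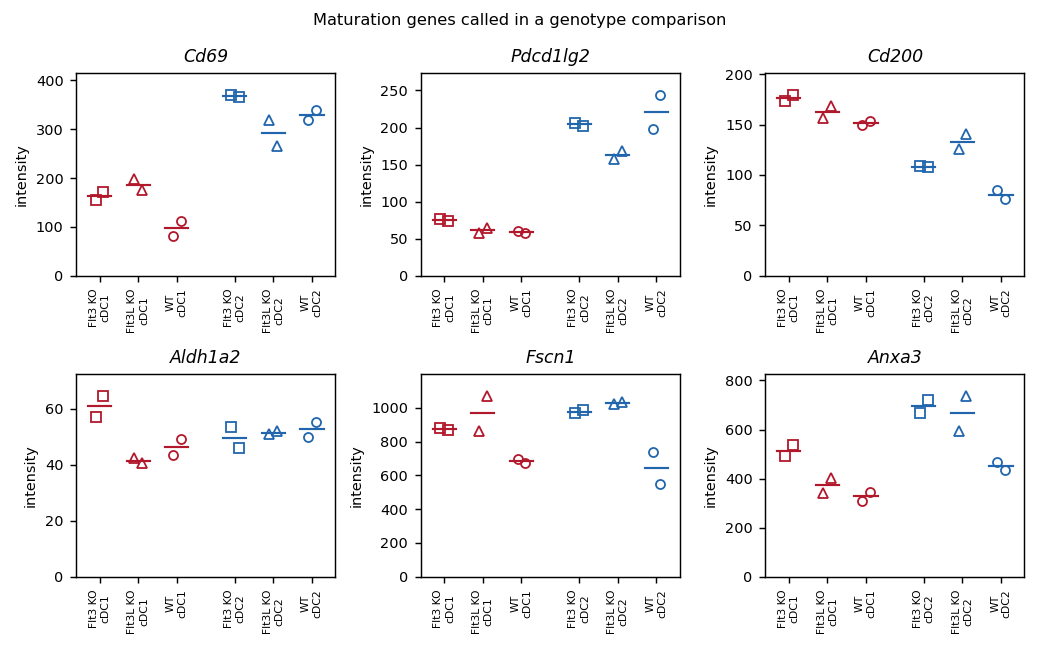
Intensity of the maturation genes called in a knockout comparison (y axis from 0), with a point for each array and a line at the group mean, Flt3 KO and Flt3L KO left of WT within each subset. The group means of Anxa3 and Fscn1 are lowest in WT within each subset, and Cd200 is higher in Flt3L KO cDC2 than in WT cDC2.

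The 2 knockouts were compared directly. In cDC1, 1 of the 31 genes was called, where 0.883% of all tested genes were called, 0.662% lower. Aldh1a2 had 42.4 and 40.6 in Flt3L KO cDC1, against 57.2 and 64.6 in Flt3 KO cDC1, with 43.4 and 49.1 in WT cDC1. In cDC2 it had 50.9 and 52.1 in Flt3L KO, 53.6 and 45.9 in Flt3 KO and 49.99 and 55.4 in WT. Its Flt3L KO arrays lay below its Flt3 KO arrays in cDC1, and the Flt3L KO minus Flt3 KO difference there was -0.55 ± 0.10 (SE; adjusted p = 0.0306). The gene is dim, and the call was lost without any 1 of the 4 knockout cDC1 arrays, with adjusted p up to 0.22. At unadjusted p under 0.05, 2 of the 31 were higher in Flt3L KO cDC1 and 11 lower, where 15.8% of all tested genes passed. In cDC2, limma called 0 of the 31, where 0.93% of all tested genes were called, and at unadjusted p under 0.05, 1 was higher in Flt3L KO and 6 lower, where 12.7% of all tested genes passed. Leaving out Flt3L KO cDC2 replicate 2 gave 1 call.

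The separate lists of other genes gave few knockout calls. In Flt3 KO, 0 genes were called in either subset or on average among the other NF-kappaB, mature, costimulatory and immediate early genes. Few genes were called at all in these comparisons: 0.0802% of all tested genes in cDC1, 0.107% in cDC2 and 0.254% on average. Each list had more estimates above 0 than below in Flt3 KO cDC1, as the maturation genes did. The counts were 19 and 3 for NF-kappaB genes (median 0.12) and 15 and 4 for mature or migratory genes (median 0.24). They were 11 and 4 for costimulatory genes (median 0.06) and 18 and 3 for immediate early genes (median 0.07). The median over all tested genes was -0.00194. In Flt3L KO cDC1 the NF-kappaB list had 2 higher, Relb at 0.50 ± 0.08 (SE; adjusted p = 0.013) and Tnip1, an inhibitor of NF-kappaB signalling, at 0.37 ± 0.08 (SE; adjusted p = 0.0489). In Flt3L KO cDC2 it had 1 lower, Tnip3, at -0.52 ± 0.11 (SE; adjusted p = 0.0346). On average over the subsets Relb was higher by 0.29 ± 0.06 (SE; adjusted p = 0.018). Of the 19 other mature or migratory genes, which include Relb, 2 were higher and 2 lower in Flt3L KO cDC1, where 1.19% of all tested genes were called. Besides Relb these were Stat4, a transcription factor, at 0.57 ± 0.11 (SE; adjusted p = 0.0282), Cd1d1, which presents lipids to NKT cells, at -0.55 ± 0.10 (SE; adjusted p = 0.0257), and Serpinb6b at -0.40 ± 0.09 (SE; adjusted p = 0.0494). In Flt3L KO cDC2, where 1.95% of all tested genes were called, 1 of the 19 was higher, Il12b at 0.51 ± 0.12 (SE; adjusted p = 0.0498). On average, where 3% of all tested genes were called, 2 of the 19 were higher (Relb and Socs2) and 2 lower (Cd1d1 and Serpinb6b). Of the 15 other costimulatory and coinhibitory genes tested, 0 were called in either subset, and on average 0 were higher and 2 lower, Tnfsf18 at -0.45 ± 0.09 (SE; adjusted p = 0.0193) and Cd48 at -0.23 ± 0.05 (SE; adjusted p = 0.0485). Immediate early genes had 0 higher and 2 lower in Flt3L KO cDC1 and 0 higher and 3 lower in Flt3L KO cDC2, among them Btg2 in both, and on average 1 was higher and 4 were lower. Their summed intensity in cDC2 was 46560 to 47020 in Flt3 KO, 42210 to 42650 in Flt3L KO and 44830 to 45220 in WT. In cDC1 it was 39130 to 40900 in Flt3 KO, 35230 to 37550 in Flt3L KO and 37130 to 37760 in WT. The part of the immediate early genes in the maturation gene results was not tested.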

How the data were processed

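The deposited value table holds linear intensity for each probe set on each array. How the authors corrected, normalized and summarised it is not stated in the labels or headers, so no further normalization was applied and log2 was taken of each intensity. Probe sets were named from the platform annotation: of 30177 probe sets, 21789 had 1 symbol, 1621 several and 6767 none in the table used here. For a gene with over 1 probe set, the one with the highest mean was used.

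The dimmest genes, a share of 0.25 by mean, were left out (mean log2 under 4.78), leaving 14954 genes, and limma 3.58.1 in R 4.3.3 was fitted with 1 mean per group over all 12 arrays, which gives 6 residual degrees of freedom. The scripts were tested on simulated data. A gene called in any comparison is named with its values on every array, and the rest by range. The genes and the lists were chosen with earlier results of these data known, so no test of a list is given. The number of arrays limits the precision. Promoters came from RefSeq. Alternatives were quantile normalization, other filters on dim genes, a trended and robust variance prior, averaged probe sets, a block for replicate number, and omission of single arrays.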

Additional observations from a re-analysis of the deposited data

Results flagged for a closer look

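The effect of losing the Flt3 ligand differed between the subsets for 2 maturation genes, as found by a test of the difference itself. For Cd69 the effect in cDC2 minus that in cDC1 was -1.13 ± 0.19 (SE; adjusted p = 0.0214). The effect was -0.18 ± 0.13 (SE) in cDC2 and 0.96 ± 0.13 (SE) in cDC1. For Cd200 the effect in cDC2 minus that in cDC1 was 0.62 ± 0.12 (SE; adjusted p = 0.0448). The effect was 0.72 ± 0.08 (SE) in cDC2 and 0.10 ± 0.08 (SE) in cDC1. Both values come from 2 arrays a group. The Cd69 call was lost on 4 of the 12 omissions of an array. The Cd200 call was lost on 11 of the 12 and without a filter on dim genes.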

How the results depend on the processing

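The 22 subset calls kept their direction and their side of the threshold under the 7 alternatives (154 of 154 values) and in 263 of 264 values without single arrays. For the knockout calls, 89 of 97 values kept their side under the alternatives and 109 of 168 without single arrays, and 0 reversed. Aldh1a2 was not tested when genes under the median mean were left out. The cause of each change below was not tested.

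Calls over all tested genes, and among the 31 maturation genes, changed by over 1.5 times as follows. For Flt3 KO against WT in cDC1, 12 genes and 0 of the 31 were called, against 22 and 2 with genes under the median mean left out and 35 and 2 with a trended, robust variance prior, and 7 genes on averaging the probe sets of each gene. In cDC2 the 16 genes and 0 of the 31 became 10 genes without a filter, 9 with genes under the median left out, and 36 and 2 with the trended prior. On average the 38 genes and 2 of the 31 became 67 and 4 with the trended prior, and 1 of the 31 with quantile normalization or without a filter. For Flt3L KO against WT in cDC1, 178 genes and 1 of the 31 became 98 genes without a filter, 363 and 4 with genes under the median left out, and 545 and 6 with the trended prior. In cDC2, 291 genes became 487 with the trended prior, and on average 449 became 778. For Flt3L KO against Flt3 KO in cDC1, 132 genes and 1 of the 31 became 86 genes without a filter, 267 and 0 with genes under the median left out, and 401 and 3 with the trended prior. In cDC2, 139 genes and 0 of the 31 became 268 and 1 with the trended prior. For the difference between subset effects, the trended prior gave 5 genes for Flt3 KO in place of 0. For Flt3L KO, 74 genes and 2 of the 31 became 118 genes with genes under the median left out, 208 and 4 with the trended prior, and 1 of the 31 without a filter.

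No label says that a replicate number marks shared animals, and over 15 pairs of groups the correlation of same-numbered deviations ran from -0.199 to 0.17, over 0.1 in 3 and under -0.1 in 5. The cDC1 and cDC2 of a genotype correlated at 0.0884 (Flt3 KO), 0.146 (Flt3L KO) and 0.159 (WT), and the 5 were all knockout against WT. As not every pair was over 0.1, the number was not taken to pair the samples. With the replicate number as a block, Flt3 KO gave 1 of the 31 in cDC1, 1 in cDC2 and 1 on average, Flt3L KO in cDC1 gave 118 genes, and the Flt3L KO difference between subsets gave 1 of the 31. The block ended the averaged calls of Fscn1 in Flt3 KO (adjusted p = 0.0727) and Cd69 in Flt3L KO (adjusted p = 0.0621), and the Cd200 call of a Flt3L KO difference between subsets (adjusted p = 0.0692). With WT numbers crossed, an alternative chosen after seeing the data, the crossed replicate block gave 20 genes and 2 of the 31 for Flt3 KO in cDC1, 1 of the 31 in cDC2 and 4 on average, 281 and 2 for Flt3L KO in cDC1, 236 and 2 for Flt3L KO against Flt3 KO in cDC1, 236 in cDC2, and 1 and 122 genes for the Flt3 KO and Flt3L KO differences between subsets.

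Leaving out single arrays gave these ranges over all genes and over the 31: 4460 to 6518 and 21 to 24 between subsets in WT, 3 to 1133 and 0 to 5 for Flt3 KO in cDC1, 2 to 21 and 0 to 1 in cDC2, 9 to 219 and 0 to 5 on average, 25 to 610 and 0 to 2 for Flt3L KO in cDC1, 72 to 485 and 1 to 5 in cDC2, 144 to 591 and 2 to 4 on average. They were 16 to 349 and 0 to 1 for Flt3L KO against Flt3 KO in cDC1 and 9 to 224 and 0 to 1 in cDC2, and 0 to 174 and 0 to 1 (Flt3 KO) and 20 to 485 and 0 to 2 (Flt3L KO) for differences between subsets. With 2 arrays a group, the number of arrays limits what can be detected.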

Other observations

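In Flt3L KO the 2 replicates differed in the same direction for most of the maturation genes. In cDC1, 27 of the 31 genes were higher in replicate 2 than in replicate 1, where 49.2% of all genes were, with a median difference of 0.12 on the log2 scale. In cDC2 it was also 27 of 31, where 48.8% of all genes were higher, with a median of 0.11. In the other 4 groups between 14 and 20 of the 31 were higher in replicate 2.

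A second probe set existed for Cd80 and Birc2. That of Cd80 ranged over 1156 to 2520 and that of Birc2 over 101 to 149.6, and each gene's value here comes from its brighter probe set.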
